A study of Mus musculus with 33 samples.

Results

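The genes described here are those of the cytosolic ribosome, taken by name as the mouse symbols that start with Rpl or Rps and go on with a number (with or without the endings a, x, y, l or a digit), together with Rpsa, Rplp0, Rplp1 and Rplp2. Of the 55376 gene symbols counted in every library, 89 matched, and the 80 with a mean above 3 CPM (a gene's reads scaled to a common library total) over the 24 libraries of cohort 2 were kept, 32 of the small (40S) and 48 of the large (60S) subunit. All animals were old C57BL/6 males, aged 24 to 29 months. Controls (O-WT) drank plain water, and treated mice (O-NR) had nicotinamide riboside (NR), a vitamin B3 form from which cells make NAD+, in their water for 4 to 6 weeks. Cohort 2 held hematopoietic stem cells (HSC), common lymphoid progenitors (CLP) and granulocyte-monocyte progenitors (GMP) of both groups, with 4 libraries per cell type and treatment. One label field gives the GMP libraries as common myeloid progenitors, while their titles say GMP, the name used here. Cohort 1 held HSCs alone: 2 untreated libraries, 4 treated ones, and 3 (O-NR-RC) of mice taken off NR for 2 months. The labels do not say whether a library is 1 mouse, so p-values measure the spread between libraries.

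A ribosome carries 1 copy of most of these proteins, so cells make them in near equal amounts, and their mRNAs are among the most abundant of any growing cell. Most of these mRNAs begin with a C followed by a run of pyrimidines, the 5′ terminal oligopyrimidine (TOP) motif, through which mTOR signalling sets how strongly they are translated. Blood stem cells are known for a low rate of protein synthesis that rises in their progeny, and inherited loss of 1 copy of certain ribosomal protein genes causes Diamond-Blackfan anemia, a failure of red cell production.

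The sorted cells carried the markers of their labels. The summed CPM of 6 HSC genes (Slamf1, Hlf, Mecom, Procr, Fgd5 and Meis1) lay between 1101 and 1985 in the HSC libraries of cohort 2, against at most 138 in CLP and 103 in GMP libraries. The 5 lymphoid genes (Il7r, Flt3, Dntt, Rag1 and Ebf1) summed to 1566 to 4386 CPM in CLPs and at most 43.7 in the other cell types of cohort 2, and the 6 myeloid genes led by Mpo and Elane to 18118 to 23692 CPM in GMPs and at most 539 in those. In the HSCs of cohort 1 the lymphoid genes summed to 63.4 to 94.5 CPM. Between 4792380 and 18213674 reads per cohort 2 library were counted on genes. Genes of olfactory and vomeronasal receptors, which blood cells are not known to use, summed to 1088 to 2509 CPM in GMP, 1782 to 3365 in HSC and 2289 to 4960 in CLP libraries, and to 6622 to 11687 in the HSC libraries of cohort 1. CLP O-WT replicate 3 stood apart with the fewest reads and the highest receptor sum of cohort 2, and HSC O-WT replicate 4 held 455 CPM of B cell genes against at most 106 in the other HSC libraries of cohort 2.

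The start regions of the genes are shown for those on which the cell type results below turn, 30 bases each from 12 bases before the annotated start, read in the direction of transcription from RefSeq's promoter table (GRCm38.p6). Capitals mark a C followed by at least 5 further C or T that begins within 10 bases of the annotated start.
Rps27, chr3:90213631-90213660, minus strand: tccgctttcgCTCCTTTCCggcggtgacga
Rps27l, chr9:66946074-66946103, plus strand: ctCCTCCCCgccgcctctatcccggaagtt
Rps24, chr14:24490666-24490695, plus strand: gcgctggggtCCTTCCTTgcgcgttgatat
Rps2, chr17:24720051-24720080, plus strand: cagtcgagatctcgcgCTTCTTggagcact
Rpl4, chr9:64173375-64173404, plus strand: cttttcctgtgggagcagccgggtagagag
Rpl41, chr10:128549151-128549180, minus strand: acgggccggctcggaagtgacgacaccgag
Rpl22, chr4:152324424-152324453, plus strand: tgcttctggaatgttccagctcccactgac
Rpl22l1, chr3:28805496-28805525, plus strand: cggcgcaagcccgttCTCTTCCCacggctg
Rps27, Rps24, Rps2, Rps27l and Rpl22l1 held such a run in these windows, and Rpl4, Rpl41 and Rpl22 did not. The Rpl4 and Rps27l windows both open with C and T from 12 bases before the annotated start, outside the limit of 10. In Rps27l a later C of that stretch, 10 bases before the start, is still followed by at least 5 further C or T. In Rpl4 no C within the limit is, so the 2 genes are set apart by the limit alone. The table held a window, 250 bases before to 50 bases after the start, for 59 of the 80 genes. A pyrimidine run at the start was found in 33 of the 59 (55.9%), against 21.9% of all 27025 genes of the table and 23.2% of 69 genes of the mitochondrial ribosome. CCGGAAG, the core read by ETS-family factors, was found on either strand in 42.4% of the 59 genes, against 9.93% of all genes and 37.7% of the mitochondrial ribosome genes. AAGATGG, the core of the YY1 motif, stood on either strand in 16.9% against 7.28%. TATAAA, the core promoter box, stood on the gene's strand in 10.2% against 9.77%. These are matches of letters, and factor binding was not measured.

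Per kilobase of annotated exon, Rplp1 had the highest level of the 80 genes, with a mean of 1395 CPM per kb over the 24 libraries. It codes for a protein of the stalk, the flexible arm of the large subunit that recruits elongation factors. Rps23 followed at 899.7, Rplp0, the base of the stalk, at 773.5, Rpl36 at 755.6 and Rpl23a at 725.2 CPM per kb. The place of Rpl23a holds for cohort 2. In plain CPM it lay above Rpl22 there (593.3 against 487.6). In cohort 1 HSCs it took 0.401 to 0.484% of the reads of the 80 genes, against 1.29 to 1.37% for Rpl22. Rpl23a shares 59.7% of its exon bases with Tlcd1 on the opposite strand, and the cause of the cohort difference was not tested. The 5 lowest were Rps10 at 2.86, Rpl6l at 5.55, Rpl13a at 13.1, Rpl22l1 at 22.9 and Rpl7l1 at 24.3 CPM per kb. Per kilobase of the longest transcript instead, Rps10 was at 7.45, Rpl13a at 26.5, Rpl7l1 at 32.6, Rps23 at 1218, Rpl23a at 1045 and Rplp0 at 945 CPM per kb, so values and order depend on the length used, with Rplp1 first under both. Rpl22l1 and Rpl7l1 are related copies of the core genes Rpl22 and Rpl7. Rps10 and Rpl13a code for core proteins, yet they lay far below the other core genes. Rpl13a shares 29.4% and Rps10 20.6% of its exon bases with another gene annotated on the same strand, and Rpl24, also a core gene, shares 47.0% and was left out with a mean of 1.49 CPM. How the authors' counting treated reads in such shared exons is not stated, and its part in these low values was not tested. By the mean of CPM from plain library totals, Rpl6l was the lowest gene kept (4.70) followed by Rps10 (6.45), and Rpl3l, a muscle gene, the highest left out (2.79), where an average receptor gene stood at 0.552 to 2.52 CPM over the cohort 2 libraries.

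The first comparison asked whether NR changed ribosomal protein mRNA in each cell type. No gene of the 80 passed the study's threshold of an unadjusted p below 0.01 in any of the 3 cell types by edgeR's quasi-likelihood test, where 0.777% (HSC), 0.412% (CLP) and 0.986% (GMP) of all tested genes did. None of the 80 had an unadjusted p below 0.05 either, against 4.06%, 3.21% and 4.83% of all genes, and DESeq2 called none. The NR effect also differed between cell types for 0 of the 80 genes, tested as an interaction over the 24 libraries, where 0.146% to 0.403% of all genes passed. In HSCs the log2 fold changes lay between -0.10 and 0.14, with a median of 0.012 and a median standard error (SE) of 0.14. In GMPs they lay between -0.10 and 0.21, with a median of -0.018 and a median SE of 0.070. The smallest unadjusted p-values by edgeR were 0.279 for Rpl15 in HSCs (log2 fold change 0.14 ± 0.12 SE) and 0.184 for Rps9 in GMPs (-0.093 ± 0.067).

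In CLPs all 80 genes had positive values, from 0.046 to 0.64, with a median of 0.16 and a median SE of 0.24. The smallest edgeR p was 0.108, for Rpl13a (0.35 ± 0.21 SE). The 80 values are not independent, since the genes move together from library to library. The summed CPM of the 80 genes was 30241, 25029, 14273 and 32477 in the O-WT and 33081, 41560, 21144 and 23679 in the O-NR CLP libraries. These groups overlap, and the lowest library is CLP O-WT replicate 3. Without it the median log2 fold change was 0.0075, and without CLP O-NR replicate 2, the highest library, 0.0062.

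**Figure D1:**
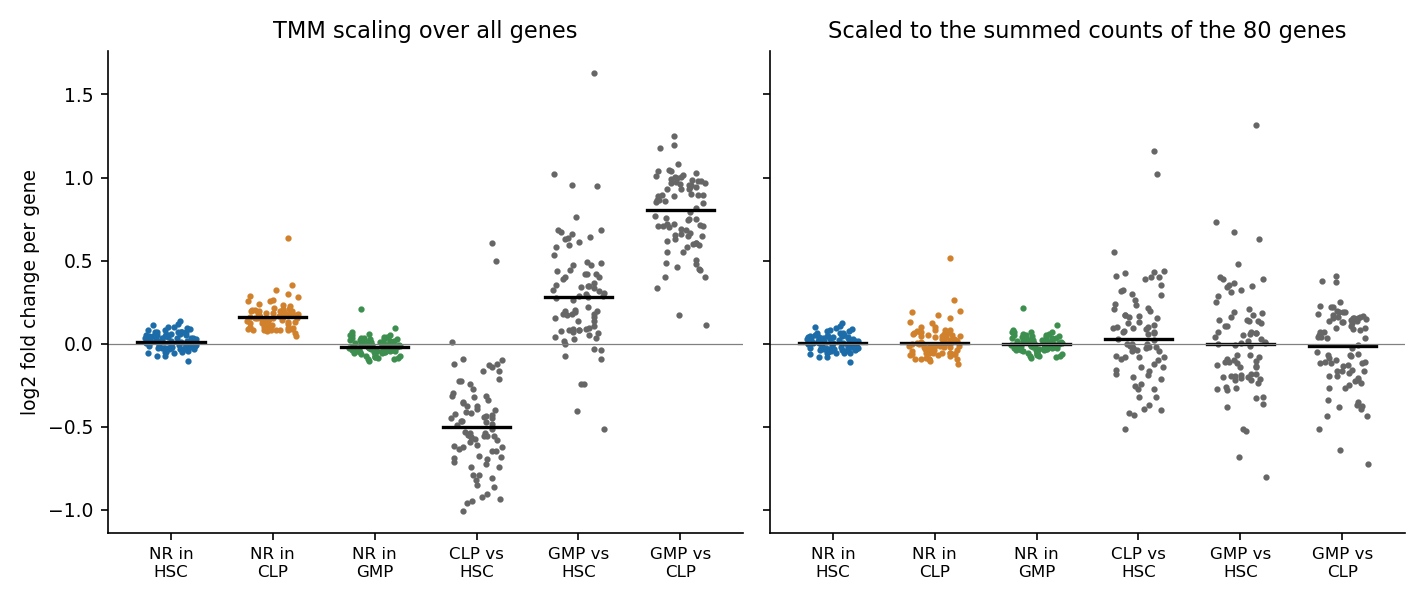
Log2 fold change of each of the 80 ribosomal protein genes (1 point per gene) in 6 comparisons, with the black bar at the median. On the left, libraries were scaled with TMM over all genes, and on the right to the summed counts of the 80 genes. The NR changes lie close to 0 in HSCs and GMPs on both sides, while the genes spread widely between cell types on both sides.

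Scaling each library to the summed counts of the 80 genes removes what the genes do in common and leaves their mix. On this scale, too, NR passed the threshold for 0 of the 80 genes in each cell type, where 0.461%, 0.105% and 1.14% of all genes did in HSCs, CLPs and GMPs. The log2 fold changes lay between -0.11 and 0.12 in HSCs, between -0.12 and 0.51 in CLPs and between -0.087 and 0.22 in GMPs, with median SEs of 0.071, 0.11 and 0.056. All 80 genes in HSCs, 79 in GMPs and 74 in CLPs changed by less than 1.1-fold. Shifts of the size of these SEs, or somewhat larger, would not have passed with 4 libraries a group. Rpl15 in HSCs, at 0.12 ± 0.080 SE, had an edgeR p of 0.14.

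In cohort 1, NR against untreated HSCs gave 0 calls among the 80 genes at an unadjusted p below 0.01, as did withdrawal against NR and withdrawal against untreated, where 0.048%, 0.0251% and 0.078% of all genes passed. The fit left their values very uncertain, with a median SE of 0.68 for NR and 0.71 for withdrawal against untreated on the log2 scale. The summed CPM of the 80 genes was 36783 and 32724 in O-WT, 17882, 18035, 39739 and 47469 in O-NR, and 57207, 15001 and 16823 in O-NR-RC. The withdrawn libraries span the whole range. The median log2 fold change of the 80 genes was -0.18 for NR and -0.24 for withdrawal against untreated, with 79 and 80 of the 80 genes below 0. Without O-NR-RC replicate 1 the latter was -1.12. On the scale of the summed counts of the 80 genes, with a median SE of 0.10, NR again gave 0 calls (0.012% of all genes), and 77 of the 80 genes lay within 1.1-fold. Withdrawal gave 0 calls on it against NR (0.0157% of all genes) and against untreated (0.015%).

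Between cell types the genes differed strongly in sum, and the libraries differed in the same sum within a cell type. The summed CPM of the 80 genes averaged 40016 ± 10233 (SD, n = 8) in HSCs, and its averages in CLPs and GMPs were 27685 ± 8425 and 48689 ± 3007. The HSC libraries held 52247, 24747, 32429 and 46726 CPM in O-WT and 46980, 29649, 49372 and 37981 in O-NR. The GMP libraries held 48960, 53730, 49274 and 43593 in O-WT and 50003, 48607, 45708 and 49635 in O-NR. HSCs thus reached the level of GMPs in some libraries and that of CLPs in others, while every GMP library (43593 and above) lay above every CLP library (41560 and below). As a share of all counted reads, the 80 genes ran from 2.39% in CLP O-WT replicate 3 to 4.60% in HSC O-WT replicate 4.

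**Figure D2:**
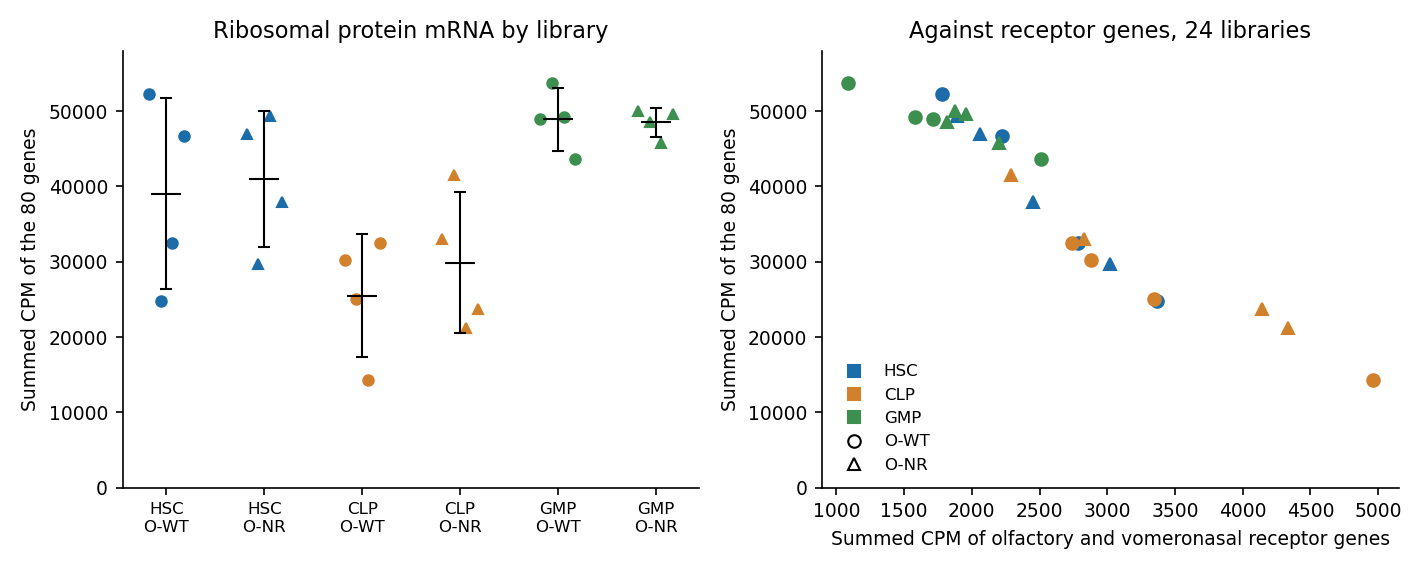
Left, summed CPM of the 80 ribosomal protein genes in each cohort 2 library (points) with the mean and SD of 4 libraries (bars). Right, the same sum against the summed CPM of olfactory and vomeronasal receptor genes, 1 point per library. Libraries with a higher receptor sum, up to 4960 CPM in CLP O-WT replicate 3, hold a lower ribosomal protein sum, down to 14273 CPM.

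In CLPs against HSCs, 51 of the 80 genes were lower and 2 higher at an adjusted p below 0.05 by edgeR's quasi-likelihood test, where 23.9% and 20.2% of all tested genes were, and their median log2 fold change was -0.50 against 0.13 for all genes. In GMPs against HSCs, 25 were higher and 1 lower (21% and 27.1% of all genes), with a median of 0.28 against -0.28. In GMPs against CLPs, 78 were higher and 0 lower (26.8% and 43.1% of all genes), with a median of 0.80 against -0.41. The direction was shared by the subunits, with medians of 0.75 for the 32 genes of the 40S and 0.85 for the 48 genes of the 60S subunit in GMPs against CLPs. Fewer mRNAs of these genes per cell and more RNA of other kinds cannot be told apart in bulk samples.

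The receptor sum moved with these differences. In HSCs the order of the 8 libraries by the sum of the 80 genes was the exact reverse of their order by the receptor sum. With the receptor sum as a covariate, an alternative chosen after seeing the data, CLPs against HSCs gave 6 higher and 33 lower (19.1% and 20.4% of all genes in that fit) with a median of -0.15. GMPs against HSCs gave 15 higher and 26 lower (18.4% and 26.8%) with a median of -0.092, and GMPs against CLPs 13 higher and 3 lower (10.8% and 17.3%) with a median of 0.058. The receptor sum also differs between the cell types, so a common change of these genes and the receptor sum cannot be told apart by this fit. DESeq2 gave 45 higher and 0 lower in GMPs against HSCs (25.9% and 19.4% of all genes). Without O-WT replicate 2 that comparison gave 16 calls and without O-WT replicate 3 40, and CLPs against HSCs gave 29 without O-NR replicate 3.

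Single genes stood out within this common movement. Rps27l, a copy of Rps27 known as a target of p53, was the gene with the smallest p in GMPs against HSCs, at 3.10-fold (log2 1.63 ± 0.15 SE, edgeR adjusted p = 1.06e-13). It lay between 9.60 and 15.1 CPM in HSCs (median 14.3), between 11.3 and 29.2 in CLPs (median 20.2) and between 32.2 and 44.1 in GMPs (median 41.3). GMP libraries did not overlap with either other cell type. Rpl41, the gene of the smallest ribosomal protein, lay between 158 and 332 CPM in HSCs (median 262), between 123 and 366 in CLPs and between 467 and 561 in GMPs, 2.03-fold higher in GMPs than in HSCs (log2 1.02 ± 0.17, adjusted p = 9.26e-07). Rps2, whose protein lines the mRNA entry site, lay between 244 and 542 CPM in HSCs and between 665 and 921 in GMPs, a 1.94-fold difference (adjusted p = 8.92e-06). Rpl13a and Rpl7l1 completed the 5 genes with the smallest p, at 1.93-fold and 1.58-fold. Rps27 was the gene that was lower in GMPs than in HSCs (0.702-fold, adjusted p = 0.0074), and this call did not hold with DESeq2 (adjusted p = 0.12), with relative log expression factors (0.16), without the filter on low counts (0.24) or in O-WT libraries alone (0.073).

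In CLPs against HSCs the 5 genes with the smallest p were all lower: Rps21 at 0.518-fold (adjusted p = 4.79e-06, edgeR), Rps14 at 0.527-fold, Rpl13 at 0.516-fold, Rpl23 at 0.523-fold and Rpl36 at 0.534-fold. Rps21 lay between 175 and 332 CPM in HSCs (median 277) and between 69.6 and 209 in CLPs (median 133). Their ranges overlap. The 2 genes that were higher in CLPs were Rps27l at 1.52-fold (adjusted p = 0.0012) and Rpl13a at 1.41-fold (adjusted p = 0.0074), whose call was lost without O-NR replicate 2 (adjusted p = 0.067), with a filter at 1 CPM (0.14) and in O-WT libraries alone (0.16). In GMPs against CLPs the leading genes were Rpl7l1 at 2.38-fold, Rps27l at 2.04-fold, Rps2 at 2.29-fold, Rpl8 at 2.26-fold and Rpl38 at 2.02-fold. Rps27 (1.08-fold) and Rps24 (1.13-fold) were the 2 genes not called there. The CPM of 43 of the 80 genes did not overlap between the 8 GMP and 8 CLP libraries, where 21.5% of all genes did not. In GMPs against HSCs 15 did not (26.9% of all genes), and in CLPs against HSCs 0 (13.8%).

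How tightly the genes moved together was measured as Pearson's r of each gene's log2 CPM with the mean of the other 79, over 24 libraries that share their scaling. The median r was 0.97, and 69 of the 80 genes were above 0.9. The same r was not taken for other genes, so it is not shown to be particular to these. HSC O-WT replicate 2, the cohort 2 HSC library with their lowest sum, also had the lowest sum of HSC marker genes (1101 CPM). Rps3 (0.997) and Rpl34 (0.996) were among those that followed the mean most closely. The 5 lowest were Rps27l at 0.55, Rpl13a at 0.58, Rps10 at 0.65, Rps27 at 0.66 and Rpl6l at 0.75. Rps27 and Rps24 (0.76 over all libraries) followed the mean at 0.99 within the 8 HSC libraries, so these genes depart between the cell types and not within HSCs. Within a group of 4 libraries the coefficient of variation of a gene was 32.1% (median of the 80 genes) for CPM in O-WT HSCs but 4.00% for its share of the reads of the 80 genes. Over the 6 groups the medians ran from 4.53% (O-NR GMP) to 32.1% for CPM and from 2.53% (O-NR GMP) to 5.91% (O-NR CLP) for the share. The share of a single gene varied by up to 44.4%, in O-NR CLPs.

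The mix of the 80 mRNAs, read as each gene's share of their summed reads, thus varied less within a group than CPM did in the median, and it was compared between cell types. On the scale of the summed counts, 26 genes were higher and 20 lower in CLPs against HSCs, 25 higher and 28 lower in GMPs against HSCs, and 26 higher and 31 lower in GMPs against CLPs, at an adjusted p below 0.05 by edgeR. On that scale 53% of all genes were higher and 9.32% lower in the first comparison, 15.3% and 39.8% in the second and 5.57% and 80.2% in the third, as it moves the median of all genes to 0.70, -0.66 and -1.34. The number of calls is thus not particular to these genes, and their sizes and directions are what is described. The log2 differences had an SD over the 80 genes of 0.29, 0.32 and 0.23 and a median SE of 0.051 to 0.052. Leaving out each replicate number in turn left 42 to 46, 46 to 51 and 49 to 51 calls.

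O-WT and O-NR libraries were also fitted apart. They share no library, and the log2 differences of the 80 genes had a Pearson's r of 0.96 between O-WT and O-NR for CLPs against HSCs, 0.98 for GMPs against HSCs and 0.91 for GMPs against CLPs, across genes, which are not independent replicates. The HSCs of cohort 1 entered none of these fits. The shares of 39 genes did not overlap between the 8 GMP and 8 HSC libraries of cohort 2, and for 35 of them the mean share in the 9 cohort 1 HSC libraries was nearer to the HSC than to the GMP mean, with Rpl11, Rpl29, Rps23 and Rps4x as the exceptions. Of 34 genes whose shares did not overlap between CLPs and HSCs, 31 were nearer to the HSC mean, with Rpl29, Rpl4 and Rpsa as the exceptions. Overlap on this scale was not taken for all genes. Of all genes, 55.1% were called on it in GMPs against HSCs and 62.3% in CLPs against HSCs. The counts of 39 and 34 are thus not shown to be particular to the 80 genes.

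**Figure D3:**
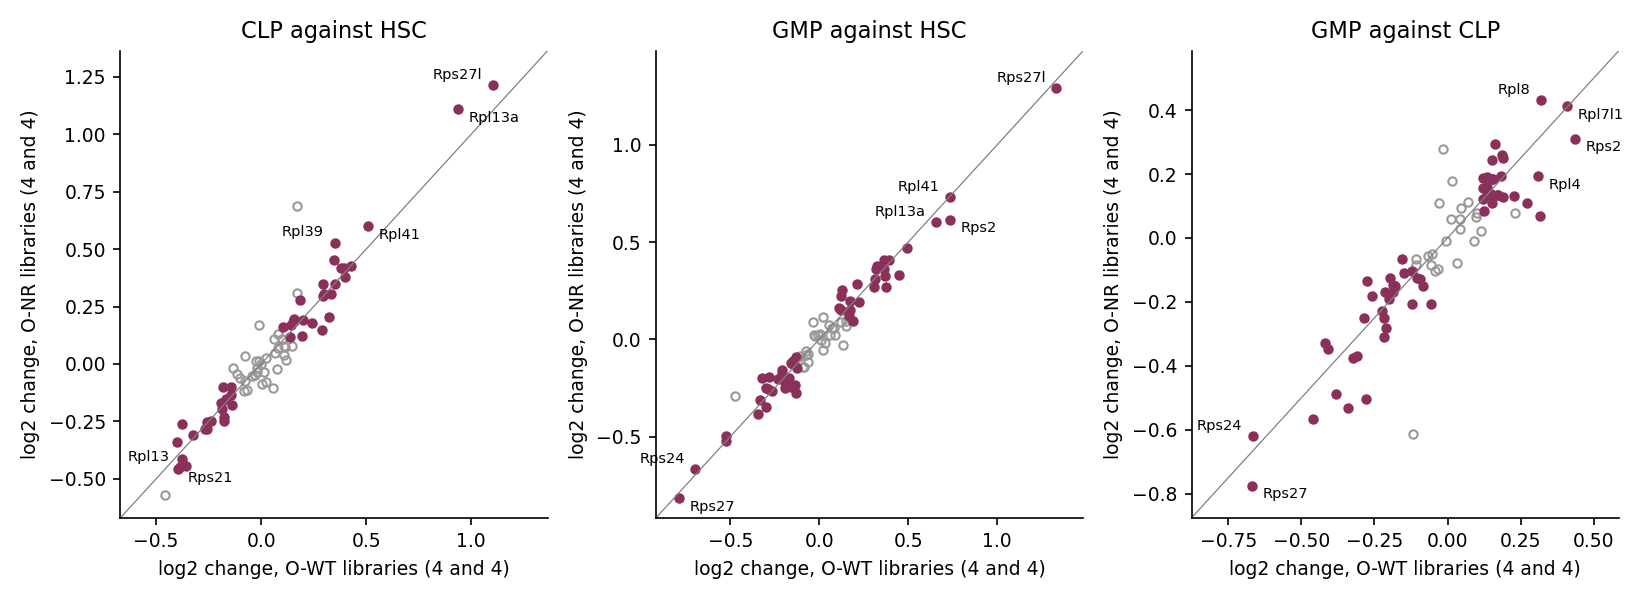
Log2 difference of each of the 80 genes between cell types after scaling to the summed counts of the 80 genes, in O-WT libraries (x axis) and in O-NR libraries (y axis), with the line of equality. Filled points passed an adjusted p of 0.05 over both treatments and open points did not. Points lie along the line, from Rps27 at the lower to Rps27l at the upper end in GMPs against HSCs.

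Rps27, a small zinc finger protein of the 40S subunit, fell most in share in GMPs. It took 0.697, 0.798, 0.719 and 0.696% of the reads of the 80 genes in O-WT HSCs and 0.685, 0.727, 0.742 and 0.701% in O-NR HSCs. In GMPs it took 0.438, 0.395, 0.425 and 0.429% in O-WT and 0.415, 0.403, 0.412 and 0.389% in O-NR. All 8 GMP libraries lay below all 8 HSC and all 8 CLP libraries (0.611 to 0.775%), and in cohort 1 HSCs the share was 0.591 to 0.742%. The share was 0.573-fold in GMPs against HSCs (log2 -0.80 ± 0.058 SE, edgeR adjusted p = 1.54e-12) and 0.606-fold in GMPs against CLPs. Its pyrimidine run at the start is the one printed first above.

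Rps24, needed for processing of the small subunit's rRNA, changed in the same way. Its share was 2.79, 2.74, 2.90 and 2.86% in O-WT HSCs and 2.80, 2.72, 2.75 and 2.70% in O-NR HSCs. In GMPs it was 1.70, 1.68, 1.74 and 1.85% in O-WT and 1.71, 1.79, 1.76 and 1.65% in O-NR. The groups do not overlap, and CLPs (2.51 to 2.86%) lay with HSCs. The difference was 0.623-fold in GMPs against HSCs (log2 -0.68 ± 0.046, edgeR adjusted p = 3.56e-13), while in cohort 1 HSCs the share was 2.39 to 2.58%. Rps14, a 40S protein, fell in both progenitors, to 0.760-fold in CLPs and 0.695-fold in GMPs, with 0.884 to 0.933% in HSCs, 0.613 to 0.744% in CLPs and 0.582 to 0.669% in GMPs. Rpl21 was also lower in both, at 0.844-fold and 0.701-fold.

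Rps27l rose in share in both progenitors. It took 0.0271, 0.0425, 0.0300 and 0.0309% in O-WT HSCs and 0.0319, 0.0324, 0.0300 and 0.0398% in O-NR HSCs. CLPs held 0.0619, 0.0898, 0.0795 and 0.05% in O-WT and 0.0655, 0.0608, 0.0622 and 0.123% in O-NR, and GMPs 0.0738 to 0.0901% over both. No CLP or GMP library overlapped with HSCs. The share was 2.23-fold in CLPs (log2 1.16 ± 0.15, edgeR adjusted p = 3.36e-07) and 2.49-fold in GMPs (adjusted p = 2.13e-08) against HSCs. Between GMPs and CLPs it did not pass (adjusted p = 0.33).

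Rpl41 rose in share, with 0.592 to 0.673% in HSCs, 0.834 to 1.06% in CLPs and 0.978 to 1.09% in GMPs. It was 1.47-fold in CLPs (adjusted p = 9.03e-10, edgeR) and 1.66-fold in GMPs (adjusted p = 2.00e-12) against HSCs. Rps2 took 0.941 to 1.07% in HSCs, 1.16 to 1.38% in CLPs and 1.48 to 1.87% in GMPs, and these ranges do not overlap. Rpl4, a core protein of the large subunit that reaches into the exit tunnel, took 2.14 to 2.35% in HSCs, 2.41 to 2.92% in CLPs and 2.92 to 3.20% in GMPs, 1.40-fold in GMPs against HSCs (adjusted p = 6.76e-10). Rpsa, also known as the laminin receptor and the most read of these genes in HSCs, took 4.25 to 4.45, 4.59 to 5.01 and 5.16 to 5.55% in the same order. The HSCs of cohort 1 lay in or near the CLP range for Rpl4 (2.46 to 2.59%) and Rpsa (4.44 to 4.87%), and with the other HSCs for Rpl41 (0.532 to 0.643%) and Rps2 (1.01 to 1.09%). Of Rps2, Rpl4 and Rpl41, Rps2 held a pyrimidine run that begins within 10 bases of its annotated start. The run that opens the Rpl4 window begins 12 bases before the start, outside that limit.

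**Figure D4:**
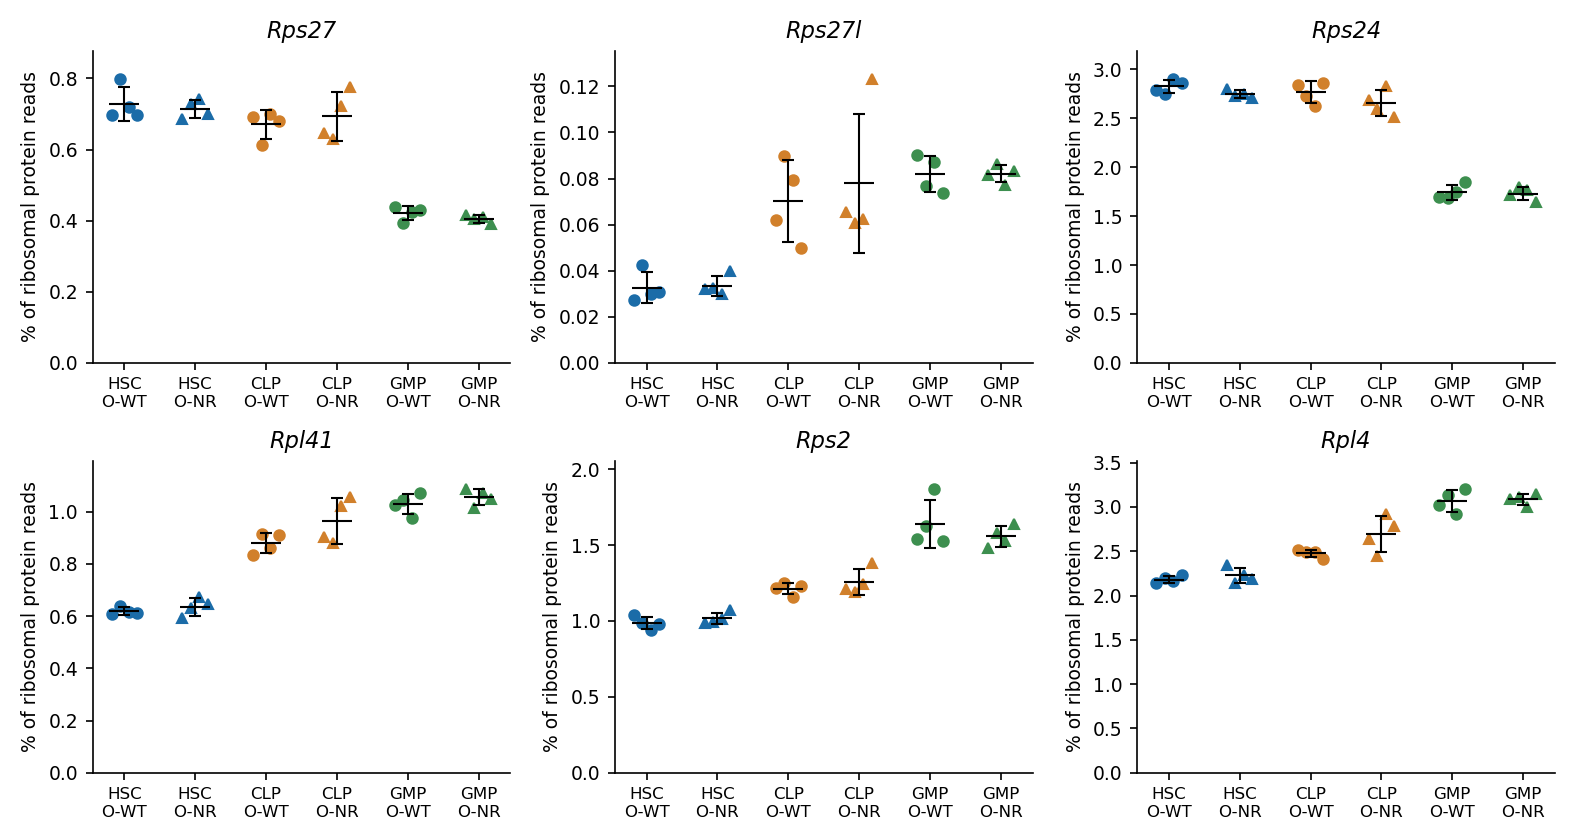
Share of the reads of the 80 genes taken by each of 6 genes in every cohort 2 library (points, in percent), with the mean and SD of 4 libraries. Rps27 and Rps24 are lower in GMPs, Rps27l, Rpl41, Rps2 and Rpl4 are higher in both progenitors than in HSCs, and O-WT and O-NR points of a cell type overlap.

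Other genes were higher in share in CLPs than in HSCs, Rpl29 (1.35-fold), Rpl28 (1.33-fold) and Rps29 (1.32-fold) among them, while Rpl13 (0.749-fold), Rpl23 (0.757-fold) and Rps21 (0.743-fold) were lower, all with an edgeR adjusted p of at most 1.47e-05. GMPs differed from HSCs in the same direction for all 6, from 1.27-fold for Rpl29 to 0.777-fold for Rpl23. Rpl13 took 1.42 to 1.57% in HSCs, 0.986 to 1.18% in CLPs and 1.27 to 1.39% in GMPs. These 3 ranges do not overlap, and CLPs are lowest. Rpl8 set GMPs apart, at 2.17 to 2.32% against 1.68 to 1.75% in HSCs and 1.45 to 1.89% in CLPs. The change in share had little relation to length: Pearson's r with the log2 length of the longest transcript was 0.038, -0.098 and -0.18 over the 80 genes in the 3 comparisons. The median log2 difference in share of the 33 genes with a pyrimidine run was 0.11 in CLPs against HSCs, 0.057 in GMPs against HSCs and -0.0071 in GMPs against CLPs, and that of the 26 genes without one -0.025, -0.12 and 0.075.

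The related copies were compared with their core genes directly, as the log2 ratio of counts in each library, which no scaling touches. Rps27l to Rps27 averaged -4.46 ± 0.19 (SD, n = 8) in HSCs, and it was -3.25 ± 0.38 in CLPs and -2.33 ± 0.11 in GMPs. Their ranges, -4.68 to -4.14, -3.77 to -2.65 and -2.54 to -2.22, do not overlap. The ratio was 2.31-fold in CLPs and 4.36-fold in GMPs against HSCs, each with a 2-sided exact permutation p of 0.00016, the smallest that 12870 regroupings of 8 and 8 allow (adjusted p = 0.0002 over 9 comparisons). These regroupings ignore that same-numbered libraries of the cell types carry 1 animal number. Flipping signs within those pairs gave a sign-flip p of 0.0078 for each (adjusted p = 0.010). In cohort 1 HSCs it lay between -4.93 and -3.88. Reads of such copies can be exchanged in mapping, which was not tested.

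Rpl7l1, a factor of large subunit assembly, was higher against Rpl7 in GMPs, at -2.91 ± 0.098 against -3.45 ± 0.086 in HSCs and -3.38 ± 0.19 in CLPs (exact permutation adjusted p = 0.0002 and sign-flip adjusted p = 0.010 for both). CLPs and HSCs did not pass (difference 0.075, exact permutation p = 0.34). Rpl22l1, which can take the place of Rpl22 in ribosomes, went the other way, at -3.77 ± 0.12 in GMPs against -3.37 ± 0.22 in HSCs and -3.12 ± 0.30 in CLPs, that is 0.756-fold and 0.634-fold (exact permutation adjusted p = 0.0002 and sign-flip adjusted p = 0.010 for both). The HSCs of cohort 1 do not share this difference, with means of -4.10 in O-WT, -3.98 in O-NR and -3.73 in O-NR-RC, near or below the GMP mean. For Rpl7l1 to Rpl7 their means, -3.26, -3.24 and -3.25, all lay below the GMP mean. They also lay above the CLP mean and above the highest HSC library of cohort 2 (-3.29). Among cohort 2 HSCs, Rpl22l1 to Rpl22 was highest in O-NR replicate 2 (-3.06) and O-WT replicate 2 (-3.09). Those libraries had the highest receptor sums (3019 and 3365 CPM), while O-NR replicate 3 (1887 CPM) stood at -3.25. The receptor sum was also lower in GMPs and higher in CLPs, with overlapping ranges. Its part in the Rpl22l1 difference between cell types was not tested. No NR difference in the 3 ratios passed in any cell type. They lay between -0.12 and 0.12, with exact permutation p-values from 0.086 to 0.83, where 4 against 4 libraries can go down to 0.029.

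**Figure D5:**
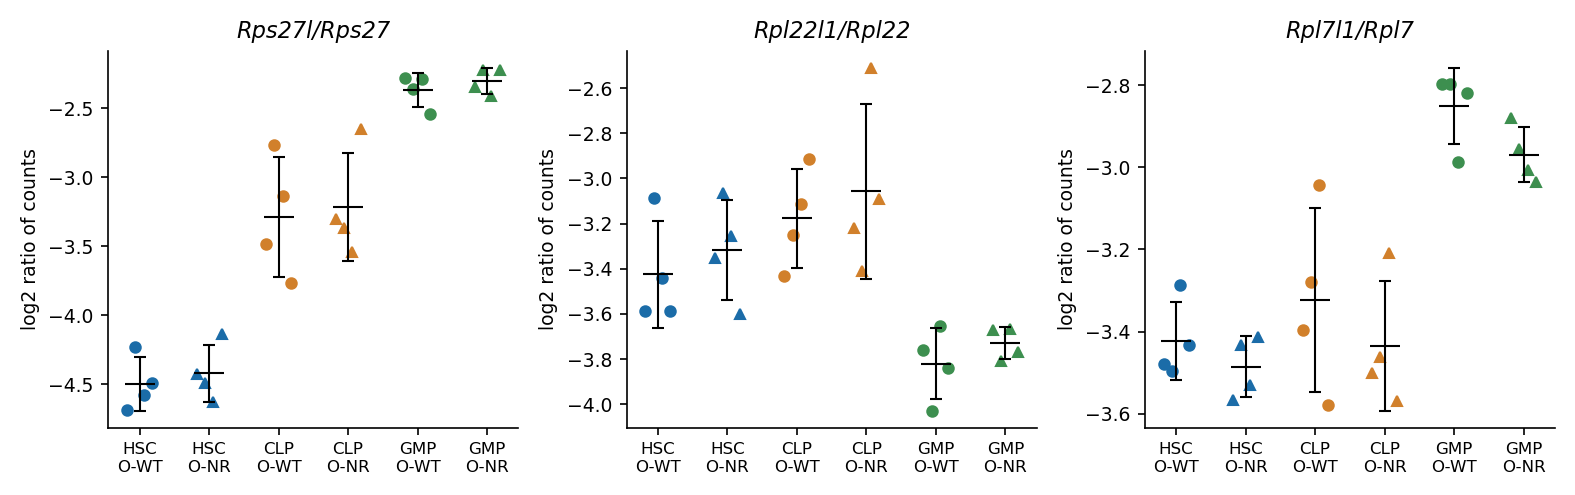
Log2 ratio of the counts of a related copy to those of its core gene in each cohort 2 library (points), with the mean and SD of 4 libraries. Rps27l/Rps27 rises from HSCs (mean -4.46) over CLPs (-3.25) to GMPs (-2.33), Rpl7l1/Rpl7 is highest and Rpl22l1/Rpl22 lowest in GMPs, and O-WT and O-NR overlap.

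The stalk proteins changed unequally. In share, Rplp1 was lower in CLPs (0.894-fold) and GMPs (0.880-fold) than in HSCs, while Rplp0 (log2 0.21) and Rplp2 (log2 0.16) were higher in GMPs, each with an edgeR adjusted p of at most 0.0051. Of 20 genes of inherited or acquired loss of ribosomal proteins (Diamond-Blackfan anemia and, for Rps14, the 5q- syndrome), 0 were called under NR in each cell type. In CPM 10 were lower in CLPs than in HSCs, 6 higher and 1 lower in GMPs than in HSCs, and 18 higher in GMPs than in CLPs, against the shares of all genes given above. In share the list was mixed, with 8 higher and 3 lower in CLPs and 6 higher and 7 lower in GMPs against HSCs. On that scale 53% of all genes were higher and 9.32% lower in CLPs, and 15.3% and 39.8% in GMPs. Rps19, the gene most often hit in the anemia, was 1.11-fold in CLPs (adjusted p = 0.0096) and 0.948-fold in GMPs (adjusted p = 0.17). Rpl5, which with Rpl11 holds back Mdm2 when ribosome assembly fails, was 0.829-fold in CLPs and 0.909-fold in GMPs, and Rpl11 did not pass against HSCs (0.970-fold and 1.09-fold). Rps26, which contacts mRNA at the exit site, was 1.28-fold in CLPs and 1.14-fold in GMPs.

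Some ribosomal proteins have names that the rule leaves out. Fau, whose product is cut to give the 40S protein eS30, was 0.596-fold in CLPs (adjusted p = 0.0013, edgeR) and 1.38-fold in GMPs (adjusted p = 0.039) against HSCs, in CPM. Rack1, a scaffold on the 40S head, was 1.37-fold in GMPs (adjusted p = 0.032). Of 20 other mRNAs of the TOP class, elongation and initiation factors among them, 13 were higher and 0 lower in GMPs against HSCs and 19 and 0 in GMPs against CLPs, led by Npm1 (2.64-fold) and Eif3l (2.31-fold) against HSCs. Of all genes, 21% were higher and 27.1% lower in the first comparison and 26.8% and 43.1% in the second. In CLPs against HSCs 8 of the 20 were lower (23.9% of all genes), with Eef2 at 0.529-fold (adjusted p = 6.28e-05).

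Initiation factors departed from the ribosomal proteins. In GMPs against HSCs 25 of 28 were higher and 1 lower (21% and 27.1% of all genes) with a median log2 fold change of 0.89, against 0.28 for the 80 genes, led by Eif2s1 (2.74-fold) and Eif3b (2.89-fold). In CLPs against HSCs 3 were higher and 3 lower (20.2% and 23.9% of all genes), with a median of -0.092 against -0.50. The 77 tested genes of the mitochondrial ribosome had medians of 0.87 and 0.018 in the same comparisons, with 71 higher in GMPs and 7 higher and 8 lower in CLPs, against the same shares of all genes. The TOP, initiation factor and mitochondrial ribosome lists are given from TMM scaling without the receptor covariate. That covariate took the median of the 80 genes in GMPs against HSCs from 0.28 to -0.092. Among 20 tested genes of mTOR signalling, Larp1, which binds TOP mRNAs, was 2.54-fold in GMPs against HSCs (adjusted p = 6.61e-10), and Deptor, an mTOR inhibitor, 0.327-fold in CLPs against HSCs (adjusted p = 3.04e-14). Both were picked out of the list, whose other genes are not described between cell types, so they do not stand for mTOR signalling. The 10 proliferation genes rose in both progenitors, by a median of 11.7-fold in CLPs and 13.6-fold in GMPs, in CLPs alongside the lower ribosomal protein sum. NR gave 0 calls at an unadjusted p below 0.01 in the TOP and initiation factor lists in each cell type. Among the mTOR genes there was 1 lower call, Ddit4 in CLPs, at 0.404-fold. Of all tested genes, 0.777% (HSC), 0.412% (CLP) and 0.986% (GMP) passed that threshold. The Ddit4 call did not hold after adjustment over all tested genes.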

How the data were processed

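Bulk total RNA-seq was made from sorted cells. Per the labels and methods, the authors trimmed reads with cutadapt, aligned them with STAR to mm10 and deposited raw read counts per gene from featureCounts, with 1 count table per library. Strand and multimapping settings are not given in the sources used here. Groups were taken from the sample titles. TMM-scaled CPM, printed from 1 scaling over the 24 cohort 2 libraries, and edgeR 4.0.16 quasi-likelihood tests (R 4.3.3) with Benjamini-Hochberg adjustment over all tested genes were computed from the counts, keeping genes that passed 3 CPM in a number of libraries equal to the size of the smallest group compared. Cell types were compared in 1 fit over the 24 libraries. DESeq2 1.42.0, other scalings and filters, and leaving out each library were alternatives. Between cell types, each replicate number of a treatment was left out instead. A short edgeR run was tried on simulated counts for NR in HSCs and for GMPs against HSCs. The other scalings, the covariate and the permutations were not tried on simulated counts. Genes named were the paralogs, stalk and disease genes, the extremes per length and in likeness, and up to 5 genes per direction with the smallest p. Rps29 and Rpsa were named after their values were seen. The members and lists were chosen with earlier results of these data known. Some genes that this rule names are not reported here.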

Additional observations from a re-analysis of the deposited data

Results flagged for a closer look

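Of 112 groups of 4 libraries tested for a library far from the others, 4 held one, where chance gives about 1 in 20. Rps27l took 0.123% of the reads of the 80 genes in CLP O-NR replicate 4, against 0.0608 to 0.0655% in the other O-NR CLP libraries. Rpl22 took 1.34% in GMP O-WT replicate 1, against 1.40 to 1.42% in the others of its group. The log2 ratio of Rpl7l1 to Rpl7 was -2.99 in GMP O-WT replicate 3, against -2.82 to -2.80. The log2 ratio of Rpl22l1 to Rpl22 was -4.17 in HSC O-NR replicate 4 of cohort 1, against -3.93 to -3.88.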

How the results depend on the processing

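Of the 78 genes called higher in GMPs against CLPs, 29 were called lower on the scale of the summed counts and 1 with the receptor covariate, and no other gene was called the other way under any alternative of the 3 cell type comparisons. Of the counts and medians under each alternative, 366 values stayed within the limits set and 27 moved. The number of the 80 genes called in CLPs against HSCs, 53 as reported, was 29 to 67 when 1 replicate was left out and 29 with a fold limit of 1.5 added. In GMPs against HSCs, 26 as reported, it was 42 with relative log expression factors (44% of all genes) and 53 on the scale of the summed counts (55.1%). It was 45 with DESeq2 (45.4%), 41 with the receptor covariate (45.1%), 14 with the fold limit and 16 to 40 without 1 replicate. In GMPs against CLPs it was 16 with the covariate (28.1% of all genes). The shares of all genes without 1 replicate, with the fold limit or in 1 treatment alone are not given here. The median log2 fold change on the scale of the summed counts was 0.026 in CLPs against HSCs and -0.015 in GMPs against CLPs, and with the covariate -0.092 in GMPs against HSCs and 0.058 in GMPs against CLPs. Relative log expression factors moved the median of all genes from -0.28 to -0.10 in GMPs against HSCs, and upper quartile factors to -0.46. The genes that changed in share numbered 28 in O-NR libraries alone for CLPs against HSCs, 34 in O-WT and 31 in O-NR alone for GMPs against HSCs, and 37, 26 and, with the covariate, 23 for GMPs against CLPs (27.6% of all genes in that last fit). Of the named genes, 8 values lost their call, for Rpl13a (3), Rps27 (4) and Rps27l on the scale of the summed counts in GMPs against CLPs. The genes whose NR effect differed between GMPs and CLPs numbered 0 to 2 without 1 replicate. In cohort 1 the median was -0.94 to 0.24 for withdrawal against NR and -1.12 to 0.072 against untreated, the lowest without O-NR-RC replicate 1 and the highest without O-NR-RC replicate 2. With plain library totals the summed CPM was 41099 in O-WT and 41416 in O-NR GMPs. In the names of the deposited tables, same-numbered HSC, CLP and GMP libraries carry 1 animal number, while O-WT and O-NR do not share any. The mean correlation of their deviations was 0.086 (HSC with CLP), -0.14 (HSC with GMP) and -0.026 (CLP with GMP), and between same-numbered O-WT and O-NR libraries 0.14, 0.031 and 0.048. With the animal as replicate block, 53, 29 and 78 genes were called (41.5%, 46.5% and 67% of all genes). The cause of these shifts was not tested.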
